A study of Mus musculus with 4 samples.

Results

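Heat shock proteins were examined in 4 RNA-seq libraries of LSK cells, sorted from bone marrow as Lin-Sca-1+c-Kit+ and including blood stem cells and multipotent progenitors. Rows were taken by gene symbol for 10 genes: Hspa8, Hspa1a, Hspa1b, Hsp90aa1, Hsp90ab1, Hspd1, Hspe1, Dnajb1, Hsph1 and Hspb1. All 10 were found among the 47561 genes of each table, and 9 of them entered the test, which took genes with at least 1 FPKM (fragments scaled to the length of the transcript and to the mapped total) in at least 2 libraries. Hspb1 did not reach that level. The Metrn cKO group (Metrn f/f LysM) and the Metrn f/f group, labelled wild type, each held 2 mice aged 12 weeks of strain C57BL/6, with 1 library per mouse. Both groups carried the floxed Metrn gene, which encodes the secreted protein Meteorin. LysM is a gene of macrophages and neutrophils, and its promoter is used to drive deletion mainly in mature myeloid cells rather than in LSK cells. Metrn had 42.3 and 36.7 FPKM in Metrn cKO, against 29.3 and 66.3 FPKM in Metrn f/f, so the groups overlapped and the Metrn level of these cells does not check the genotype labels.

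Heat shock proteins are chaperones that keep other proteins folded. HSP70 proteins bind short greasy stretches of unfolded chains in cycles driven by ATP, J-domain proteins deliver clients to them, and HSP110 proteins release the nucleotide. HSP90 proteins take over late folding steps of kinases and hormone receptors, while the chaperonin HSP60 with its lid HSP10 folds proteins inside mitochondria. Some of these genes are transcribed at all times, and others are switched on by heat shock factor 1 when unfolded proteins accumulate. Blood stem cells depend on tight control of protein folding and synthesis.

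The promoters of 4 members are shown because they carry the element that heat shock factors bind, built from inverted repeats of GAA. They are RefSeq sequences on GRCm38.p6, the assembly called mm10, written 5′ to 3′ along the strand of the gene, with each match of GAANNTTC or TTCNNGAA in capitals.
Hspa1a: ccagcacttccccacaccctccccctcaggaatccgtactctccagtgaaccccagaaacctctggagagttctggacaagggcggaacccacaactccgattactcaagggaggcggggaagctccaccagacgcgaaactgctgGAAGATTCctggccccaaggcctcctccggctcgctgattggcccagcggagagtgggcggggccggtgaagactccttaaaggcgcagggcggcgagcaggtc
Hspa1b: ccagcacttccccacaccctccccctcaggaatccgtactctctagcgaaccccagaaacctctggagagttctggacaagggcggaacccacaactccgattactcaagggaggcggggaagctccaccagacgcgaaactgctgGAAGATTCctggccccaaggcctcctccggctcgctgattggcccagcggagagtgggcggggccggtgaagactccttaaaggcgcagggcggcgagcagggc
Hspe1: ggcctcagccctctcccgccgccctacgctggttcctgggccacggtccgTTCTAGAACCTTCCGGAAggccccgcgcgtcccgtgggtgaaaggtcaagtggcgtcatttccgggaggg
Hspb1: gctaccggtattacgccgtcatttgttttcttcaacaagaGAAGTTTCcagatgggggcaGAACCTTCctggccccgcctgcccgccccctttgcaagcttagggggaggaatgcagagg
The Hspa1a stretch is chr17:34972157-34972406 on the minus strand and the Hspa1b stretch is chr17:34959239-34959488 on the minus strand, each ending at the base before the annotated start. They differed at 3 of 250 bases. In both, the element began 104 bases before the start, at -104, and a CCAAT box read as ATTGG began at -67. The Hspe1 stretch is chr1:55088009-55088128 on the plus strand and holds overlapping elements from -89 to the end of TTCCGGAA, which begins at -79. It lies inside the annotated span of Hspd1, which is read the other way. The same letters were found on the other strand in 1 of the 2 windows listed for Hspd1, the one set at a RefSeq start within that span, and not in the one at the outer end of the span. The Hspb1 stretch is chr5:135887762-135887881 on the plus strand and has elements at -117 and -97. Windows of 300 bases were available for 7 members, and 6 of them (Hspa1a, Hspa1b, Hspd1, Hspe1, Hsph1 and Hspb1) held a pair of units in either order, against 17% of all 27025 genes and 15.1% of their 32851 windows. The longer form of 3 units, GAANNTTC followed by NNGAA or TTCNNGAA followed by NNTTC, was found in 3 of the 7 (Hspd1, Hspe1 and Hsph1), against 0.662% of all genes and 0.603% of windows. CCAAT or ATTGG was found in 5 of the 7, against 41.1% of all genes and 37.4% of windows. The units of Hspd1 and Hspe1 are the same bases read on opposite strands, and the Hspa1a and Hspa1b stretches are near copies. The counts of members are therefore not counts of separate sites. Matches overlap within the longer form, and a match of letters does not show that the site is bound.

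The libraries differed within each genotype. Neutrophil markers (8 genes) summed to 58307 and 1930 FPKM in Metrn cKO 1 and 2, and to 2479 and 31930 FPKM in Metrn f/f 1 and 2. Erythroid markers (9 genes) summed to 23890 and 2481 FPKM in Metrn cKO, against 3060 and 29185 FPKM in Metrn f/f. Markers of B and plasma cells (8 genes) summed to 10781 and 305 FPKM in Metrn cKO 1 and 2, against 212 and 3405 FPKM in Metrn f/f 1 and 2. For macrophages and monocytes (9 genes) the sums were 1165 and 373 FPKM in Metrn cKO, against 423 and 1878 FPKM in Metrn f/f. The LSK markers (8 genes) summed to 341 and 771 FPKM in Metrn cKO, against 670 and 473 FPKM in Metrn f/f, and none of them was at 0 in any library. Metrn cKO 1 and Metrn f/f 2 were thus high in mature cell transcripts, although the sort should remove those cells. Among all marker lists, genes at 0 were found only in Metrn cKO 2, which lacked the B cell gene Ms4a1 and the T cell genes Cd3e, Cd3g and Trac. In bulk samples, fewer cells of a type and less RNA per cell cannot be told apart. The depth of the libraries is unknown, and FPKM values summed to 562401 and 412955 in Metrn cKO 1 and 2 and to 392717 and 671802 in Metrn f/f 1 and 2.

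The constitutive cytosolic chaperones were among the most abundant transcripts in all 4 libraries. Hsp90ab1, the constitutive HSP90, had 857 and 1030 FPKM in Metrn cKO 1 and 2, against 1050 and 794 FPKM in Metrn f/f 1 and 2. It ranked 86 of 13148 tested genes by mean level. Its highest and lowest libraries both came from the Metrn f/f group, so the groups overlapped. Hspa8, the constitutive HSP70 (Hsc70), had 996 and 659 FPKM in Metrn cKO 1 and 2, against 646 and 994 FPKM in Metrn f/f 1 and 2, and ranked 100 by mean. Hspa8 was 1.51-fold higher in Metrn cKO 1 than in Metrn cKO 2 and 1.54-fold higher in Metrn f/f 2 than in Metrn f/f 1, whereas Metrn cKO 1 and Metrn f/f 2 were within 1.00-fold of each other and Metrn cKO 2 and Metrn f/f 1 within 1.02-fold. Hsp90ab1 ran the other way and was lowest in Metrn f/f 2 and Metrn cKO 1. Hspa8 was above Hsp90ab1 in those same libraries and below it in the others, so the order of the leading pair was not stable across mice. Of the 50-base stretches of the Hspa8 transcript, 73.2% also occurred in transcripts of other genes, most of them in Gm15459. Gm15459 had 103 and 70.1 FPKM in Metrn cKO, against 67.6 and 103 FPKM in Metrn f/f, so reads may be split between them.

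Inducible HSP70 was nearly silent in Metrn cKO 2 and Metrn f/f 1, the libraries with the lower sums of mature cell markers. Their neutrophil marker sums, 1930 and 2479 FPKM, still exceeded their LSK marker sums of 771 and 670 FPKM. Such sums are over different genes and do not measure the share of each cell type. Hspa1a had 10.9 FPKM in Metrn cKO 1 and 0.0244 in Metrn cKO 2, against 0.283 in Metrn f/f 1 and 3.30 in Metrn f/f 2. Hspa1b had 14.0 and 0.238 FPKM in Metrn cKO 1 and 2, against 0.230 and 1.18 FPKM in Metrn f/f 1 and 2. Both genes reached 1 FPKM only in Metrn cKO 1 and Metrn f/f 2, and they passed the filter through those libraries. These genes lie on chromosome 17 (Hspa1a at positions 34969190 to 34972156, Hspa1b at 34956436 to 34959238 of GRCm38), with 9951 bases between them, and their coding sequences were 99.6% identical. In the Hspa1a transcript 58.8% of 50-base stretches also occurred in Hspa1b, and in the Hspa1b transcript 62.3% also occurred in Hspa1a. The single rows are therefore uncertain. Their sum does not depend on how shared reads were split between them, but it would be too low if shared reads were dropped. How shared reads were handled is not known. Together they had 24.8 and 0.262 FPKM in Metrn cKO, against 0.513 and 4.48 FPKM in Metrn f/f. The sum was 94.7-fold higher in Metrn cKO 1 than in Metrn cKO 2 and 8.73-fold higher in Metrn f/f 2 than in Metrn f/f 1, and the groups overlapped. On the log2(FPKM + 1) scale the sum averaged 2.51 ± 3.08 in Metrn cKO and 1.53 ± 1.31 in Metrn f/f (SD, n = 2 each). The difference of 0.99 had p = 1.00 by a 2-sided exact permutation test, for which 0.333 is the smallest value that 2 mice against 2 can give. Without Metrn cKO 1 this difference was -1.19, and without Metrn cKO 2 it was 3.17.

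**Figure D1:**
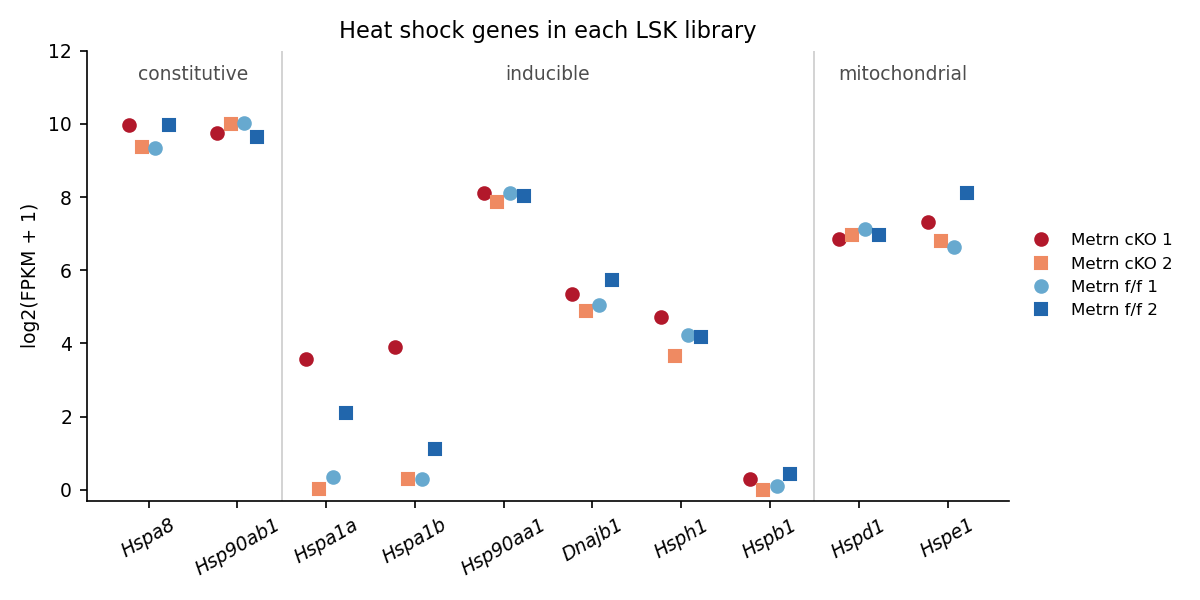
Level of each heat shock gene as log2(FPKM + 1) on the y axis, with 1 point per library and genes grouped by class on the x axis. Constitutive genes lie close together near 10, whereas Hspa1a and Hspa1b stand highest in Metrn cKO 1, at 10.9 and 14.0 FPKM.

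The inducible share of each chaperone pool does not depend on how libraries are scaled. Hspa1a and Hspa1b made up 2.43% and 0.0398% of the summed FPKM of Hspa1a, Hspa1b and Hspa8 in Metrn cKO 1 and 2, against 0.0794% and 0.448% in Metrn f/f 1 and 2. Hspa8 thus made up nearly all of the summed FPKM of these 3 genes in every library, with reads shared with other genes handled in an unknown way. Hsp90aa1, the inducible HSP90, made up 24.4% and 18.4% of the HSP90 pool in Metrn cKO 1 and 2, against 20.6% and 24.6% in Metrn f/f 1 and 2. Of the 50-base stretches of the Hsp90aa1 transcript, 58.5% also occurred in transcripts of other genes, most of them in Gm12346. For Hsp90ab1 it was 4.49%. The HSP90 share would therefore be too low if shared reads were dropped. The HSP90 share was also higher in Metrn cKO 1 and Metrn f/f 2, over a much narrower range than the HSP70 share. Neutrophil, erythroid and B cell marker sums were high in those libraries, and their part in either share was not tested. The log2 ratio of Hsp90aa1 to Hsp90ab1 averaged -1.89 ± 0.37 in Metrn cKO and -1.78 ± 0.23 in Metrn f/f (SD, n = 2 each; exact permutation p = 0.667). The log2 ratio of Hspa1a plus Hspa1b to Hspa8 averaged -8.31 ± 4.22 in Metrn cKO and -9.05 ± 1.77 in Metrn f/f (SD, n = 2 each; exact permutation p = 1.00).

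**Figure D2:**
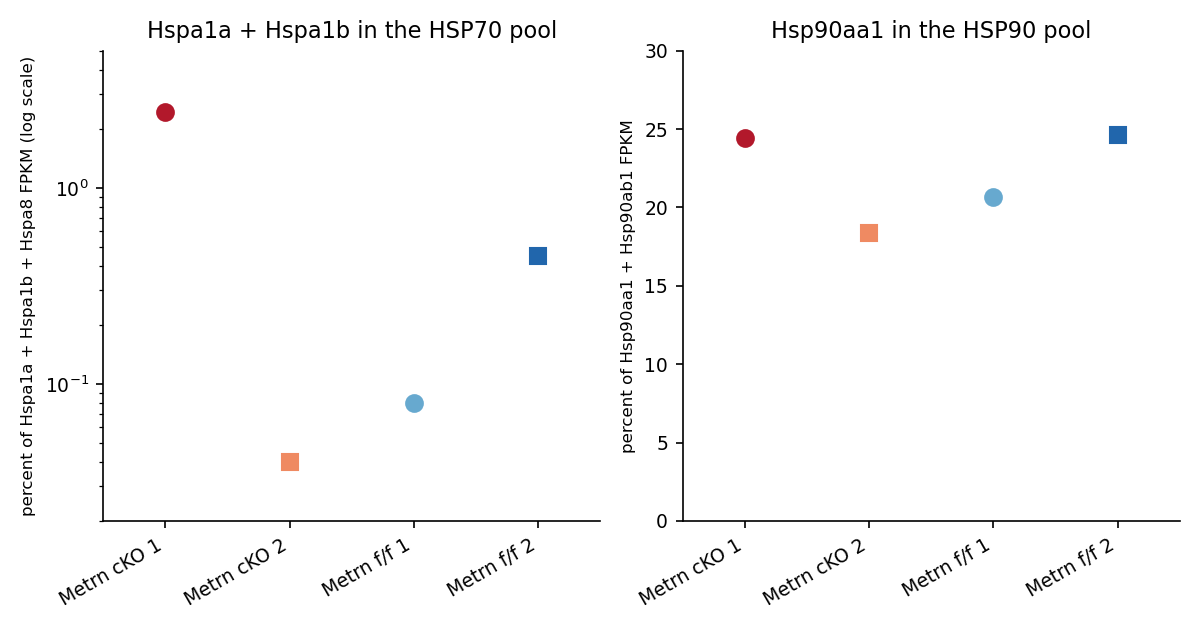
Share of the inducible members in the HSP70 pool (left, percent on a log scale) and in the HSP90 pool (right, percent), with 1 point per library. In both pools Metrn cKO 1 and Metrn f/f 2 lie above Metrn cKO 2 and Metrn f/f 1, from 0.0398% to 2.43% for HSP70 and from 18.4% to 24.6% for HSP90.

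The other inducible genes were expressed in all libraries except Hspb1. Hsp90aa1 had 277 and 232 FPKM in Metrn cKO 1 and 2, against 273 and 259 FPKM in Metrn f/f 1 and 2. Its highest value was only 1.19-fold above its lowest, the smallest range of the 9 members with values above 0 in every library. Although classed as inducible, Hsp90aa1 ranked 250 by mean and stood above both mitochondrial members. Reads shared with other genes were handled in an unknown way, so this order is uncertain. Dnajb1, the J-domain protein that works with HSP70 (Hsp40), had 40.1 and 28.6 FPKM in Metrn cKO, against 32.1 and 52.7 FPKM in Metrn f/f, and was highest in Metrn f/f 2. Hsph1, the HSP110 that recharges HSP70 with ATP, had 25.5 and 11.6 FPKM in Metrn cKO, against 17.9 and 17.0 FPKM in Metrn f/f, so both of its extremes were Metrn cKO libraries. Hspb1, the small heat shock protein HSP25, had 0.218 FPKM in Metrn cKO 1, was listed at 0 in Metrn cKO 2, and reached 0.0849 FPKM in Metrn f/f 1 and 0.350 FPKM in Metrn f/f 2. Of its 50-base stretches 51.6% also occurred in the pseudogene Hsp25-ps1, so reads may have been lost.

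Dnajb1 was also set against Hspa8, its partner. There were 0.0403 and 0.0434 Dnajb1 transcripts per Hspa8 transcript in Metrn cKO 1 and 2, against 0.0498 and 0.0530 in Metrn f/f 1 and 2, on the FPKM scale. Both Metrn cKO values lay below both Metrn f/f values, and the mean log2 ratio was -4.58 ± 0.075 in Metrn cKO and -4.28 ± 0.064 in Metrn f/f (SD, n = 2 each). The difference of -0.30 had an exact permutation p = 0.333, the smallest this design can give, and adjusted p = 1.00 over the 5 ratios compared. Among 12855 other tested genes above 0 in every library, 6.6% had a ratio to Hspa8 that was lower in both Metrn cKO libraries, and 2.29% had one that was higher in both. Leaving out each library in turn kept the difference between -0.35 and -0.24. Its sign could not change, because the groups did not overlap. The ratio of Hsph1 to Hspa8 was 0.0256 and 0.0175 in Metrn cKO, against 0.0277 and 0.0171 in Metrn f/f. Its groups overlapped, with a log2 difference of -0.040 (exact permutation p = 1.00, n = 2 each).

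The mitochondrial pair did not move together. Hspd1, the chaperonin HSP60, had 116 and 124 FPKM in Metrn cKO 1 and 2, against 139 and 123 FPKM in Metrn f/f 1 and 2. Hspe1, its HSP10 lid, had 157 and 111 FPKM in Metrn cKO, against 99.1 and 275 FPKM in Metrn f/f. Hspd1 stayed within a 1.20-fold range while Hspe1 spanned 2.78-fold, with its top value in Metrn f/f 2. Of their 50-base stretches, 44.8% for Hspd1 and 36.1% for Hspe1 also occurred in transcripts of other genes. For Hspd1 most were in Hspd1-ps3, at 10.3 and 3.28 FPKM in Metrn cKO 1 and 2, against 2.13 and 3.81 FPKM in Metrn f/f. Reads may have been split or lost, so these levels and their ratio are uncertain. Both genes start within 1 region of chromosome 1, where their annotated spans (55077835 to 55088243 and 55088132 to 55091307) overlap by 112 bases. The ratio of Hspd1 to Hspe1 was 0.735 and 1.12 in Metrn cKO 1 and 2, against 1.41 and 0.447 in Metrn f/f 1 and 2. The log2 difference of 0.19 lay within the spread between mice (exact permutation p = 1.00, n = 2 each).

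Transcript length moved with the library differences. Among the 10971 tested genes with a protein-coding transcript in GENCODE (83.4%), the log2 difference between the Metrn f/f libraries (mouse 2 minus mouse 1) had a Spearman rho of -0.76 with the length of the longest transcript. For Metrn cKO 1 minus Metrn cKO 2 it was -0.44, for Metrn cKO 2 minus Metrn f/f 1 it was -0.19, and for Metrn cKO 1 minus Metrn f/f 2 it was 0.64. These are descriptions across genes of the same libraries. Between the Metrn f/f libraries (mouse 2 minus mouse 1), genes with transcripts under 1000 bases had a median log2 difference of 1.27, with quartiles at 0.97 and 1.58. In genes with transcripts of 4000 bases or more, the median was -1.13. Hspe1, with a transcript of 774 bases, differed by 1.46 between these libraries and lay within the quartiles of its length class. Hspd1 (2423 bases) and Hsp90ab1 (2520 bases), at -0.18 and -0.40, also lay within the quartiles of theirs, which were -0.41 and 0.31.

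The other 6 tested members stood above the upper quartile of their length class in both pairs of libraries. They were Hspa8, Hspa1a, Hspa1b, Hsp90aa1, Dnajb1 and Hsph1. Hspa1a and Hspa1b passed the filter only through Metrn cKO 1 and Metrn f/f 2, the high side of both pairs. Their direction was therefore set by the filter, and the count of members is no evidence for them. By construction 25% of genes lie above that quartile in each pair, and 14.6% of the 10971 genes did so in both. Hspa8 (2394 bases) differed by 0.59 between the Metrn cKO libraries, where the median of its class was -0.14, and by 0.62 between the Metrn f/f libraries, where it was -0.061. Hsph1 (3802 bases) differed by 1.08 between the Metrn cKO libraries, where the class median was -0.28. Between the Metrn f/f libraries it differed by -0.069, where the class median was -0.55. Dnajb1, at 0.47 and 0.70, was likewise above its class in both, and its transcript of 2996 bases is close to the next class. The part of transcript length or of mature cells in these differences was not tested.

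**Figure D3:**
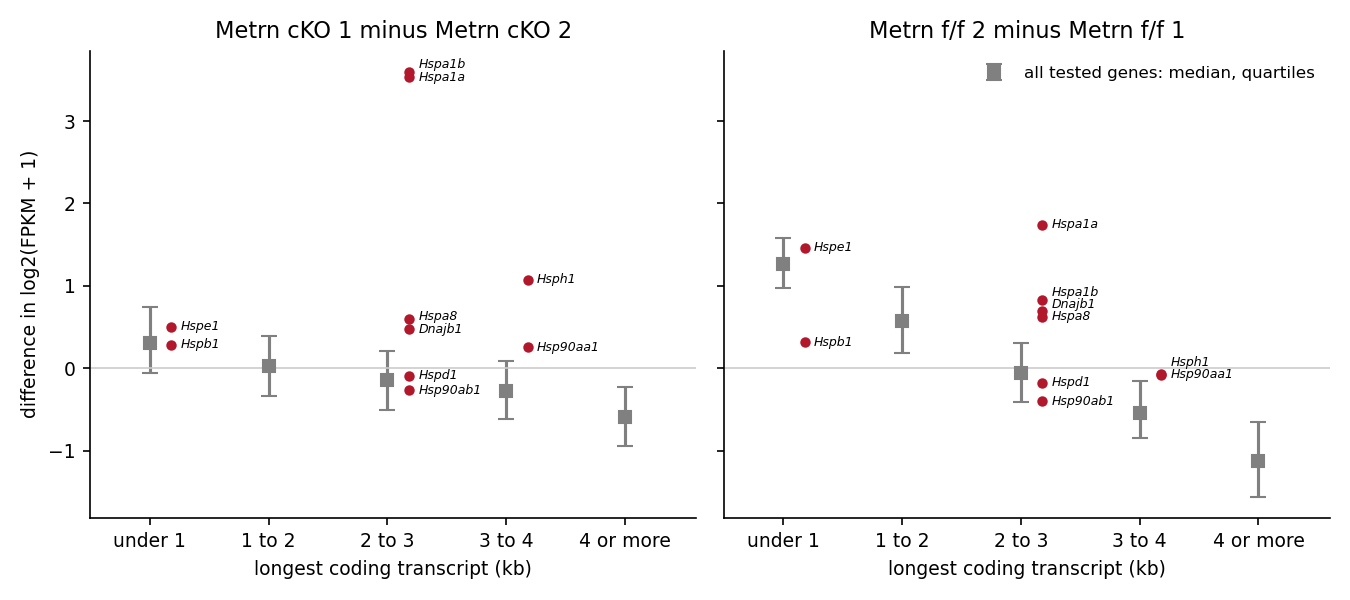
Difference in log2(FPKM + 1) between the libraries of each genotype on the y axis, by length class of the longest coding transcript in kb on the x axis. Grey squares with bars give the median and quartiles of all tested genes and red points the heat shock genes, including Hspb1, which was not tested. Longer classes lie lower, down to a median of -1.13 for Metrn f/f 2 minus Metrn f/f 1, and Hspe1 lies with other short transcripts.

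By size of difference, 3 of the 9 tested members (Hspa1a, Hspa1b and Hsph1) were at least 2-fold higher in Metrn cKO 1 than in Metrn cKO 2 on the log2(FPKM + 1) scale, against 6.72% of the 13148 tested genes. None was at least 2-fold lower, against 12.4% of all. In Metrn f/f 2 against Metrn f/f 1, 2 members (Hspa1a and Hspe1) were at least 2-fold higher, against 13.7% of all, and 0 were lower, against 21.9%. Hspa1a and Hspa1b were tested only because they reached 1 FPKM in Metrn cKO 1 and Metrn f/f 2. The filter thus set their direction in both pairs, and their part in these counts is no evidence of a difference. In Metrn cKO 2 against Metrn f/f 1 0 members passed that size in either direction, against 0.745% higher and 0.616% lower of all. The median member differed by 0.50 between the Metrn cKO libraries, where the median of all tested genes was -0.24. Between the Metrn f/f libraries it differed by 0.62, where that of all genes was -0.23. These medians include Hspa1a and Hspa1b, whose direction the filter set, so they are no evidence of a difference either. Of the remaining tested members, Hsp90aa1, Hsp90ab1, Hspd1 and Hsph1 were lower in Metrn f/f 2 than in Metrn f/f 1. Hspa8, Hspe1 and Dnajb1 were higher. In Metrn cKO 1 against Metrn cKO 2, only Hsp90ab1 and Hspd1 of these were lower.

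The genotypes were compared by limma over all 13148 genes, which asks whether deletion of Metrn in myeloid cells changes transcript levels in LSK cells. None of the 9 tested members was called higher or lower, and neither was any other gene (0% at adjusted p under 0.05 by limma). Without adjustment, 39 genes (0.297%) had p under 0.05, none of them a heat shock member. No member had groups that did not overlap, against 12% of all tested genes, made up of 6.31% higher and 5.73% lower in both Metrn cKO mice than in either Metrn f/f mouse. The log2 fold change of Metrn cKO over Metrn f/f was 0.017 (SE 0.68) for Hspa8, 0.040 (SE 0.68) for Hsp90ab1 and -0.071 (SE 0.46) for Hsp90aa1. It was 0.57 (SE 1.21) for Hspa1a and 1.39 (SE 1.14) for Hspa1b, which had the smallest unadjusted p of the members, 0.265. With a pseudocount of 0.1 in place of 1 these were 0.034 and 1.75, and with a pseudocount of 5 they were 0.43 and 0.81. Dnajb1, Hsph1, Hspd1 and Hspe1 had -0.27 (SE 0.44), -0.016 (SE 0.50), -0.13 (SE 0.40) and -0.32 (SE 0.59), and each adjusted p by limma was 1.00. Of the 9, 4 were above 0 and 5 below, with a median of -0.016, beside a median of 0.067 over all tested genes. The sign flipped for Hspa8 and Hsp90ab1 with median-of-ratios scaling, at -0.046 and -0.023. With scaling to the same sum it flipped for Hsp90aa1 and Hsph1, at 0.021 and 0.066. Standard errors ran from 0.40 to 1.21, and with 2 mice per genotype a change of that size was not detectable. Larger ones were not called either, such as that of the gene Nr4a1 at -3.93 (SE 0.59). Without Metrn cKO 1 the log2 fold change of Hspa1b was -0.40 and that of Hspa1a was -1.20. Without Metrn cKO 2 they were 3.19 and 2.34.

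**Figure D4:**
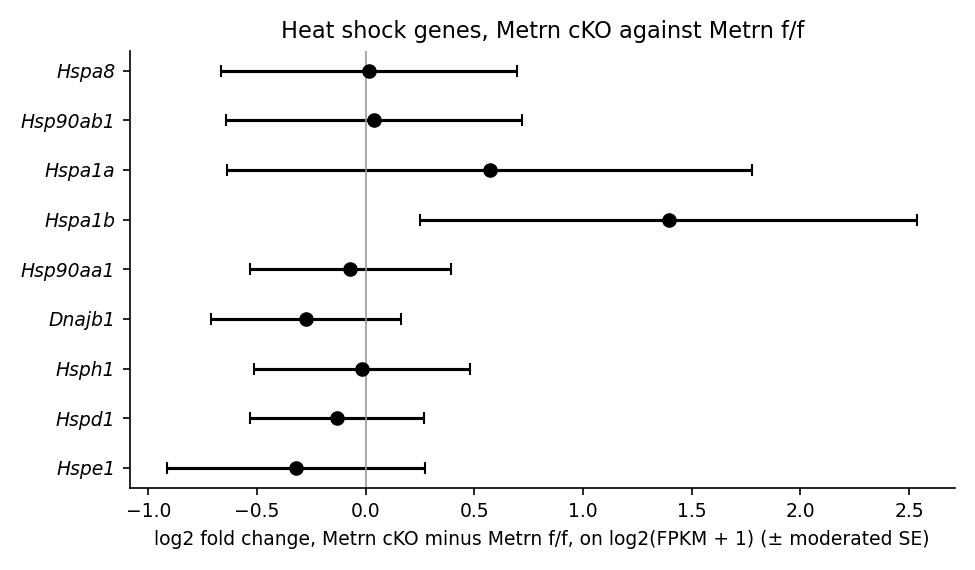
Log2 fold change of Metrn cKO over Metrn f/f on the log2(FPKM + 1) scale (x axis) for the 9 tested heat shock genes (y axis), as points with bars of 1 moderated standard error from limma. Points run from -0.32 for Hspe1 to 1.39 for Hspa1b, and the bar of every gene but Hspa1b reaches 0.

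The wider chaperone network was described by lists, and limma called no gene of any list in the comparison of all 4 libraries. Over all 13148 tested genes, 5578 had log2 fold changes below 0, and 6.31% were higher and 5.73% lower in both Metrn cKO mice than in either Metrn f/f mouse. Of 15 further HSP70-class proteins and partners, 1 was higher and 2 were lower in both Metrn cKO mice than in either Metrn f/f mouse, with a median log2 fold change of 0.10. Without Metrn f/f 2 that median was -0.079. Bag5, a nucleotide exchange factor, had 12.5 and 13.4 FPKM in Metrn cKO, against 10.9 and 11.1 FPKM in Metrn f/f. Bag2, which keeps the ligase Stub1 (CHIP) in check, had 7.81 and 11.1 FPKM in Metrn cKO, against 11.5 and 12.7 FPKM in Metrn f/f. Hspa2, an HSP70 best known from testis, had 3.20 and 3.20 FPKM in Metrn cKO, against 3.44 and 4.63 FPKM in Metrn f/f. The most abundant of this list, Bag1 and Stub1, averaged 76.3 ± 7.85 and 64.9 ± 0.0530 FPKM in Metrn cKO and 94.0 ± 44.0 and 72.0 ± 11.9 FPKM in Metrn f/f (SD, n = 2 each).

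Of 15 further J proteins, 1 (Dnajb14) was above and 2 (Dnajb4 and Dnajc2) were below in both Metrn cKO libraries, with a median of -0.0084. That median was 0.042 without Metrn f/f 2 and 0.083 with libraries scaled to the same sum. Dnajc8, the most abundant, averaged 79.8 ± 7.29 FPKM in Metrn cKO and 91.1 ± 35.7 FPKM in Metrn f/f, and Dnajc9, a histone chaperone, averaged 74.5 ± 11.0 FPKM in Metrn cKO and 85.7 ± 20.9 FPKM in Metrn f/f (SD, n = 2 each). Dnajb14, a J protein of the endoplasmic reticulum membrane, averaged 4.82 ± 0.320 FPKM in Metrn cKO and 4.24 ± 0.0513 FPKM in Metrn f/f (SD, n = 2 each). Dnajb4, which can be induced by heat, had 2.95 and 4.34 FPKM in Metrn cKO, against 4.79 and 5.50 FPKM in Metrn f/f. Dnajc2, which sits on the ribosome and receives new chains, had 38.1 and 38.2 FPKM in Metrn cKO, against 41.4 and 39.7 FPKM in Metrn f/f. Among 15 HSP90 co-chaperones 1, the dynein-associated Nudc, was below in both, at 130 and 124 FPKM in Metrn cKO, against 131 and 185 FPKM in Metrn f/f. The list median was -0.045, and it became -0.25 when Metrn f/f 1 was left out and 0.039 when Metrn f/f 2 was. With libraries scaled to the same sum it was 0.043. The kinase adaptor Cdc37 averaged 161 ± 2.94 FPKM in Metrn cKO and 184 ± 38.5 FPKM in Metrn f/f (SD, n = 2 each), and the immunophilin Fkbp4 averaged 137 ± 15.3 and 151 ± 23.2 FPKM in the same order.

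Among 14 subunits of the cytosolic chaperonin TRiC and of prefoldin, which hands actin and tubulin chains to it, 13 had log2 fold changes below 0 and 3 (Cct3, Cct5 and Cct6a) were below in both Metrn cKO libraries. The median was -0.14. Cct5 had 158 and 163 FPKM in Metrn cKO, against 163 and 207 FPKM in Metrn f/f, so the nearest values of the groups almost touched. Cct3 had 115 and 119 FPKM in Metrn cKO, against 121 and 147 FPKM in Metrn f/f, and Cct6a had 98.6 and 114 FPKM in Metrn cKO, against 117 and 121 FPKM in Metrn f/f. Cct2, another abundant TRiC subunit, had 156 and 174 FPKM in Metrn cKO, against 168 and 198 FPKM in Metrn f/f. The list median was 0.077 without Metrn f/f 2, and 0.067 between Metrn cKO 2 and Metrn f/f 1 alone.

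In the 12 other mitochondrial chaperones and proteases the median was -0.061. Leaving out Metrn cKO 1 gave 0.18, leaving out Metrn f/f 1 gave 0.16, and leaving out Metrn cKO 2 gave -0.26. With libraries scaled to the same sum it was 0.024. Grpel2, a nucleotide exchange factor of mitochondrial HSP70, was above in both Metrn cKO libraries, at 6.33 and 6.96 FPKM, against 6.19 and 4.91 FPKM in Metrn f/f. Hspa9, the mitochondrial HSP70, averaged 93.3 ± 21.1 FPKM in Metrn cKO and 96.9 ± 16.9 FPKM in Metrn f/f (SD, n = 2 each). Trap1, the mitochondrial HSP90, averaged 65.1 ± 15.6 FPKM in Metrn cKO and 64.2 ± 12.2 FPKM in Metrn f/f. Both were lower in Metrn cKO 1 and Metrn f/f 2 than in the other libraries, the reverse of Hspa8. Of 8 other small heat shock proteins only 2 were tested. Hspb6 was above in both Metrn cKO libraries, at 4.21 and 3.98 FPKM, against 3.17 and 2.72 FPKM in Metrn f/f, and Hspb11 had 4.36 and 8.27 FPKM in Metrn cKO, against 4.45 and 11.3 FPKM in Metrn f/f.

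The regulators of the response were present. Hsf1, the factor that switches the inducible genes on, had 19.4 and 26.9 FPKM in Metrn cKO, against 30.2 and 23.4 FPKM in Metrn f/f. Hsbp1, which binds and restrains Hsf1, had 62.1 and 54.0 FPKM in Metrn cKO, against 51.8 and 105 FPKM in Metrn f/f. Of 7 genes in this list 3 were tested, with no gene outside the range of the other group and a median of -0.21. That median was 0.013 without Metrn cKO 1 and -0.035 without Metrn f/f 1. Of 16 other heat-inducible genes 14 were tested, and 3 (Dnajb4 and Serpinh1 among them) were below in both Metrn cKO libraries, with 0 above and a median of -0.14. Leaving out each library in turn gave medians from -0.27 to -0.00012. Ubb, a polyubiquitin gene and the most abundant of the list, had 825 and 721 FPKM in Metrn cKO, against 719 and 1452 FPKM in Metrn f/f. Serpinh1, a collagen chaperone, had 1.35 and 1.43 FPKM in Metrn cKO, against 2.03 and 2.30 FPKM in Metrn f/f.

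Chaperones of the endoplasmic reticulum and immediate early genes were described in the same way. Of 14 endoplasmic reticulum chaperones, 1 (Calr) was below in both Metrn cKO libraries, at 512 and 492 FPKM, against 608 and 514 FPKM in Metrn f/f, and the list median was -0.16. Leaving out each library in turn gave medians from -0.29 to -0.026. Hspa5, the HSP70 of that compartment, had 243 and 168 FPKM in Metrn cKO, against 200 and 266 FPKM in Metrn f/f. Of 21 tested immediate early genes, which like inducible heat shock genes respond to handling of cells, 18 were below in both Metrn cKO libraries and 0 above, where the share of all tested genes below in both was 5.73%. The list median was -1.55, and it became -0.77 when Metrn f/f 2 was left out and -2.22 when Metrn f/f 1 was, and stood at -0.54 between Metrn cKO 2 and Metrn f/f 1 alone. Limma called 1 of these genes with the replicate number as a block, 1 without Metrn cKO 2, and 12 with a block that paired opposite numbers, which was chosen after seeing the data. Fos had 174 and 288 FPKM in Metrn cKO, against 391 and 873 FPKM in Metrn f/f. Jun, its dimer partner, had 191 and 313 FPKM in Metrn cKO, against 405 and 531 FPKM in Metrn f/f. The nuclear receptor Nr4a1 had 5.37 and 9.83 FPKM in Metrn cKO, against 74.7 and 210 FPKM in Metrn f/f, the zinc finger factor Klf6 had 15.4 and 21.1 FPKM in Metrn cKO, against 41.0 and 68.0 FPKM in Metrn f/f, and the cytokine signalling inhibitor Socs3 had 2.58 and 6.10 FPKM in Metrn cKO, against 13.5 and 31.4 FPKM in Metrn f/f. Whether the heat shock genes differ from these lists was not tested.

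**Figure D5:**
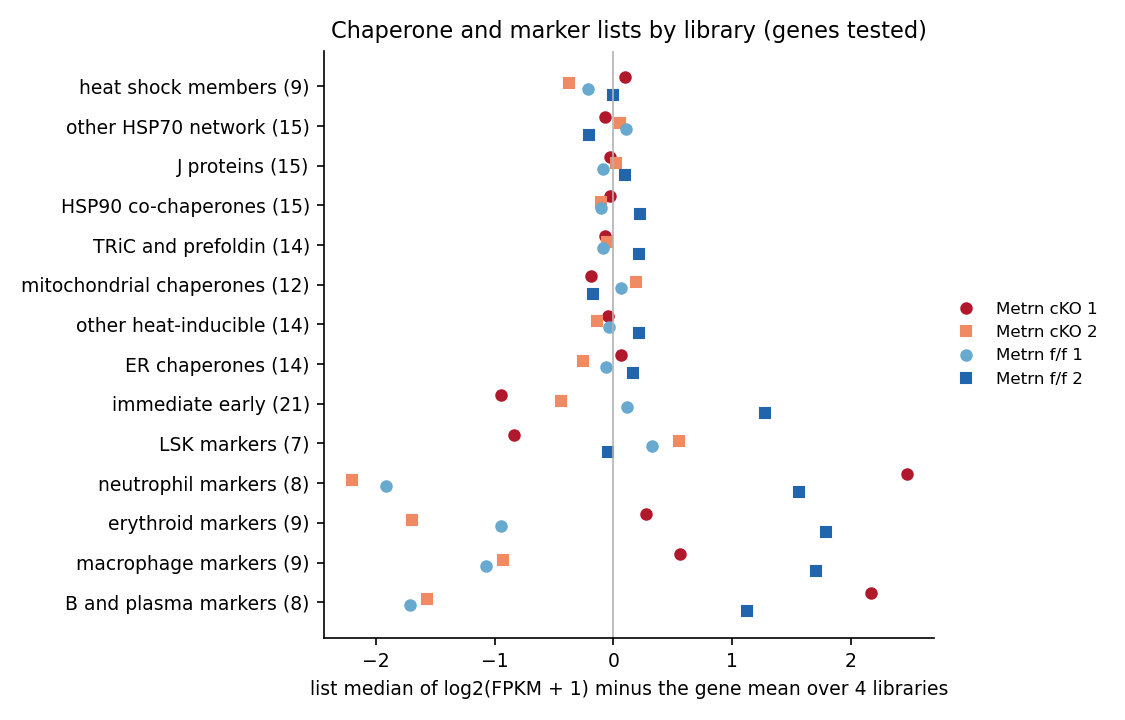
Median of each gene list in each library (x axis, log2(FPKM + 1) minus the mean of the gene over the 4 libraries), with the number of genes tested in brackets on the y axis. Chaperone lists stay close to 0, whereas immediate early genes reach 1.28 in Metrn f/f 2 and neutrophil markers 2.47 in Metrn cKO 1.

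The genes with profiles nearest to Hspa1a and Hspa8 over the 4 libraries were listed as a description. Likeness was the root mean square difference of log2(FPKM + 1) after centring each gene on its mean. The 5 nearest to Hspa1a, at differences of 0.037 to 0.18, included Olfml2b, Pou2af1, Olfm4 and Itgb2l. Olfm4, a granule protein of neutrophils, had 19.0 and 0.503 FPKM in Metrn cKO, against 1.18 and 7.92 FPKM in Metrn f/f. Pou2af1 lay nearer than Olfm4, at 0.12, with 38.7 and 2.15 FPKM in Metrn cKO, against 2.39 and 12.0 FPKM in Metrn f/f. Which cells these transcripts came from was not tested. The 5 nearest to Hspa8 were Ppil1, Gyg, Bub3, Akirin1 and Lgals9, at 0.014 to 0.027. Bub3, a mitotic checkpoint protein, had 81.0 and 51.8 FPKM in Metrn cKO, against 50.3 and 77.6 FPKM in Metrn f/f. With 4 libraries many genes share a profile by this measure.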

How the data were processed

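RNA was measured in LSK cells sorted from 2 Metrn cKO and 2 Metrn f/f mice, 1 library per mouse per the labels' protocols, which name TRIZOL extraction and DNase I. Per the submitters' processing notes, the build was mm10 and the tools included HISAT2 2.1 and featureCounts 1.6.4, with no role stated. Which tool wrote the values, with which annotation and strand setting, is not given in the sources used here. For each library the authors deposited 1 value per gene symbol, taken as FPKM from the values, which have decimals, are never negative and sum to different totals. Read totals are unknown, so no counting interval was given.

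From these values log2(FPKM + 1) was compared by limma 3.58.1 in R 4.3.3 with an intensity trend, 2-sided, over the 13148 genes with at least 1 FPKM in 2 libraries, with Benjamini-Hochberg adjustment over all of them and a threshold of 0.05. The test was checked on simulated data. These had independent values with the same spread for every gene, so the check does not show how the test performs on these libraries. Ratios within a library were compared by exact permutation in SciPy 1.17.1. Coordinates and transcripts came from GENCODE on GRCm38, and promoters from RefSeq on GRCm38.p6. The members and gene lists were chosen with earlier results of these data known. Named genes are all members, the 2 most abundant of each list, up to 3 of each list with the smallest p among those whose groups do not overlap and the 5 nearest profiles. Some of these genes are not reported here. Alternatives were 2 other pseudocounts (0.1 and 5), no filter on low values, 2 rescalings, no trend, a replicate block and leaving out libraries.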

Additional observations from a re-analysis of the deposited data

How the results depend on the processing

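No member was called with other pseudocounts, without the filter or the trend, with either rescaling, with the replicate block, or without any 1 library. No gene was called with pseudocounts of 0.1 or 5, without the filter, with either rescaling or without the trend. With the replicate number as a block, 3 genes were called higher and 1 lower. Libraries of the same number deviated in opposite directions (r = -0.71 over 13148 genes). With 2 libraries per group, same and opposite numbers must give the same r with opposite signs. This r therefore cannot show whether the numbers pair the mice. With crossed numbers, a block chosen after seeing the data, 37 genes were called higher and 65 lower, 1 of them a member (Hspa1b, adjusted p = 0.00914 by limma). Leaving out each library gave 0 to 32 genes called higher and 0 to 5 lower; the 32 came without Metrn cKO 2 and the 5 without Metrn cKO 1. Leaving out each library also took the log2 fold change across 0, from -0.29 to 0.33 for Hspa8, -1.20 to 2.34 for Hspa1a, -0.40 to 3.19 for Hspa1b, -0.20 to 0.056 for Hsp90aa1, -0.16 to 0.24 for Hsp90ab1, -1.05 to 0.41 for Hspe1, -0.62 to 0.075 for Dnajb1 and -0.55 to 0.52 for Hsph1. Hspd1 kept its direction. For the sum of Hspa1a and Hspa1b the range was -1.19 to 3.17. Log2 ratio differences ranged from -0.37 to 0.15 for Hsp90aa1 to Hsp90ab1, from -2.25 to 3.72 for Hspa1a plus Hspa1b to Hspa8, from -0.39 to 0.31 for Hsph1 to Hspa8 and from -0.64 to 1.02 for Hspd1 to Hspe1. Between Metrn cKO 2 and Metrn f/f 1 alone the direction reversed for Hspa1a (-0.32), Hsp90ab1 (-0.029), Hspe1 (0.16), the sum of Hspa1a and Hspa1b (-0.26), its ratio to Hspa8 (-0.999) and the ratio of Hspd1 to Hspe1 (-0.34). Between Metrn cKO 1 and Metrn f/f 2 alone it reversed for Hsp90aa1 (0.095), Hsph1 (0.56) and the ratio of Hsph1 to Hspa8 (0.58). Scaling by median of ratios reversed Hspa8 (-0.046) and Hsp90ab1 (-0.023). Scaling to the same sum reversed Hsp90aa1 (0.021) and Hsph1 (0.066), and a pseudocount of 5 reversed Hsph1 (0.0014). The cause of these reversals was not tested.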
